A study of Homo sapiens with 8 samples.

Results

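DTX3L, PARP9, PARP10, PARP12, PARP14, HERC5 and HERC6 are 7 interferon-induced genes, out of 18377 genes that had a probe set carrying their symbol alone. They were picked because several of them were lower while OAS1 was higher. The reason names no comparison. It was taken to be that of lung cells after pollutants altered by sunlight (photochemically altered, PCA) with their control. For the 7 genes and OAS1 the values and calls of that comparison are therefore given as a description, without p-values. Such calls restate the choice and are not an independent test. Each gene was read from 1 probe set, and all 7 probe sets passed the limit on low signal, a signal of 30 on at least 1 array of a comparison.

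The arrays measured mRNA in A549 cells, an epithelial line from a human lung adenocarcinoma, grown at an air-liquid interface. Primary pollutants, named fresh urban mix in the labels, were a synthetic mixture of hydrocarbons and nitrogen oxides drawn over the cells in the morning. PCA pollutants, the aged urban mix of the labels, were the same mixture after sunlight had converted part of it to secondary products, drawn over cells in the evening. Control cells sat in humidified incubator air at the same hours and are called morning control and evening control. Exposure lasted 4 h and RNA was taken 9 h later, with 2 arrays in each of the 4 groups. The duplicates were biological by the study's methods but came from the same exposure period, so the errors below measure the spread within a period and not between periods. Pollutant mixture, hour of exposure and exposure period cannot be told apart between the primary and PCA groups. A549 is 1 tumour line, and with RNA from whole wells fewer expressing cells and less RNA per cell cannot be told apart. The study found more cell death, by release of lactate dehydrogenase, after PCA than after primary pollutants. The part of cell death in the results was not tested.

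Interferons bind receptors at the cell surface, and kinases of the JAK family then activate transcription factors, which enter the nucleus with IRF9 and bind a short DNA element in front of interferon-stimulated genes. Most PARP enzymes attach ADP-ribose, taken from NAD, to proteins, and those induced by interferon have been tied to antiviral defence. DTX3L is a ubiquitin ligase that forms a complex with PARP9, HERC5 is the main human ligase for the ubiquitin-like protein ISG15, and HERC6 is its close relative in the HERC family.

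The start regions show how the genes are laid out. DTX3L and PARP9 lie head to head on chromosome 3, with 37 bases between their annotated starts in GRCh38.p14, so they share a promoter. The interferon-stimulated response element was searched as GAAANNGAAA on both strands, in windows of 300 bases from RefSeq that run from 250 bases before a start to 50 after it. The window of DTX3L, a window of PARP9, and those of PARP14 and PARP12 each held 1 match and that of HERC5 held 3, of which 2 overlap each other. HERC6 held none, and the window of PARP10 was not analysed here. Of all 35116 RefSeq windows, 1255 (3.57%) held a match. The sequences below run 5′ to 3′ on the strand named, with matches to GAAANNGAAA or its reverse complement TTTCNNTTTC in capitals. The DTX3L and PARP9 stretch starts at the base beyond the PARP9 start, and the others are the 150 bases before each start.
DTX3L and PARP9, chr3:122564301-122564341, plus strand: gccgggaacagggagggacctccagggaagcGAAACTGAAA
PARP14, chr3:122680689-122680838, plus strand: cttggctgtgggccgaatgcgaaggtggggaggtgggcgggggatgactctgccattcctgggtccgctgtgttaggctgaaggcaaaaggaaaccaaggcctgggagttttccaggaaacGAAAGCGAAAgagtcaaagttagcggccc
PARP12, chr7:140062952-140063101, minus strand: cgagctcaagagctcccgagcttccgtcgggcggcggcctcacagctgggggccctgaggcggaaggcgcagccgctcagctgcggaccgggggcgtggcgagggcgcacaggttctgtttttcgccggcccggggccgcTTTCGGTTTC
HERC5, chr4:88456969-88457118, plus strand: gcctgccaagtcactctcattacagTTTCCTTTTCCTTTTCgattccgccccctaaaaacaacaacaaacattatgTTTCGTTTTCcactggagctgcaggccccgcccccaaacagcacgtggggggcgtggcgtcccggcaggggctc
HERC6, chr4:88378702-88378851, plus strand: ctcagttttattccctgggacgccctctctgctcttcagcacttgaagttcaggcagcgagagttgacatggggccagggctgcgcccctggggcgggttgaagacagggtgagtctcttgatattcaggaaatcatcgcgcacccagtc

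The DTX3L match began 6 bases before the DTX3L start and ran across it. It is the same site as the PARP9 match, and the other PARP9 window held none. The PARP14 match began 29 bases, and the PARP12 match 10 bases, before the start. The matches of HERC5 began 125, 119 and 74 bases before its start. PARP14 also held TTCCAGGAA, a match to the gamma-activated motif TTCNNNGAA, 40 bases before its start, and 2689 (7.66%) of all windows hold that motif. A match is only a run of letters and does not show that a factor binds there.

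Values are log2 signals normalized by the authors, and a level of 1 gene is not compared with that of another. All 4 groups were fitted together in limma, and a gene was called, that is said to fall or rise, at a Benjamini-Hochberg adjusted p under 0.05 with a fold change of at least 1.5 (0.585 on the log2 scale). Array medians lay between 6.93 and 7.03. The SD of log2 signals over the probe sets of an array was 1.98 and 1.99 for the PCA arrays against 2.04 to 2.07 for the other 6, and its part in the results was not tested. All 5 epithelial markers were detected, at a summed signal of 29800 to 32800 in the controls, 25200 to 31800 after primary pollutants and 26800 to 27700 after PCA pollutants, with CDH1 among the genes that fell after PCA pollutants (-1.11). Alveolar type II markers were dim, with a mean log2 signal of 6.23 to 6.54 over the 4 markers measured. Of the 4 leukocyte markers measured, PTPRC alone was under 30 on all 8 arrays. No type II, fibroblast or endothelial marker measured was, so passing that limit did not set the epithelial markers apart. Summed signals were 228 to 271 for leukocyte, 625 to 675 for fibroblast and 385 to 458 for endothelial markers. Endothelial markers summed to 434 to 458 after PCA pollutants against 385 to 415 in the evening control. The part of these marker differences in the results was not tested.

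PARP9, the partner that gives the DTX3L complex its ADP-ribosyltransferase domain, had the widest range of the 7 genes across the arrays, 1.26 on the log2 scale. Its log2 signal was 8.15 and 8.09 in the morning control, 7.82 and 8.04 after primary pollutants, 8.43 and 8.33 in the evening control, and 7.17 and 7.35 after PCA pollutants. Both PCA arrays lay below the other 6, and no 2 groups overlapped. PARP9 fell after PCA pollutants by 1.12 on the log2 scale (SE 0.101), to 45.9% of its evening control. The group means ran from evening control through morning control and primary pollutants down to PCA pollutants, with steps of 0.26, 0.19 and 0.67.

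DTX3L, the ubiquitin ligase of the pair, read 8.46 and 8.56 in the morning control and 8.26 and 8.46 after primary pollutants. It read 8.77 and 8.86 in the evening control and 7.91 and 7.93 after PCA pollutants. The PCA arrays were again the lowest and the evening controls the highest, while morning control and primary pollutants overlapped. DTX3L fell by 0.89 (SE 0.0891) after PCA pollutants, to 53.9% of its control. DTX3L and PARP9 thus had the same order of group means, and their signals, each centred on its mean over 8 arrays, differed by 0.131 (root mean square, log2 scale). That is a description, since both were picked from the same arrays.

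PARP14, a large macrodomain PARP close to this pair on chromosome 3, read 9.06 and 9.18 in the morning control and 8.79 and 9.15 after primary pollutants. It read 9.19 and 9.29 in the evening control and 8.36 on both PCA arrays. Both PCA arrays lay below the other 6, and the arrays of morning control and primary pollutants overlapped. PARP14 fell by 0.88 (SE 0.119) after PCA pollutants, to 54.2% of its control. Among the 21 pairs of the 7 genes, DTX3L and PARP14 had the smallest difference in centred signal among the 4 genes that fell, 0.0957.

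HERC6, which carries the ligase domain of its family, read 7.28 and 7.25 in the morning control, 6.83 and 6.77 after primary pollutants, 7.26 and 7.32 in the evening control and 6.50 and 6.58 after PCA pollutants. The controls overlapped each other, and both exposed groups lay below all 4 control arrays. HERC6 fell by 0.75 (SE 0.072) after PCA pollutants, to 59.4% of its control. It was the member whose value after primary pollutants was nearest to its value after PCA pollutants among the 4 that fell, at -0.46 (SE 0.072), or 72.6% of the morning control.

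HERC5, the ISG15 ligase beside HERC6 on chromosome 4, varied less, over a range of 0.31. It read 6.60 and 6.55 in the morning control, 6.30 and 6.42 after primary pollutants, 6.61 and 6.48 in the evening control and 6.44 and 6.36 after PCA pollutants. The exposed groups overlapped each other and both lay below the 4 control arrays. The log2 fold change of HERC5 was -0.14 (SE 0.0833) after PCA pollutants and -0.22 (SE 0.0833) after primary pollutants. The centred signals of HERC5 and its neighbour HERC6 differed by 0.253. HERC5 and PARP12 were the closest of all 21 pairs, at 0.0797. They are also the members with the smallest ranges, and this difference is small for any genes that vary little.

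PARP12, a zinc-finger PARP that represses viral replication when overexpressed, varied least, over 0.13. It read 7.37 and 7.36 in the morning control, 7.28 and 7.29 after primary pollutants, 7.35 and 7.39 in the evening control and 7.38 and 7.26 after PCA pollutants. Neighbouring groups overlapped along the whole order of its means, and its log2 fold change was -0.05 (SE 0.073) after PCA pollutants.

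PARP10, a mono-ADP-ribosyltransferase, was higher in the exposed groups than in their controls, with no call. It read 7.42 and 7.43 in the morning control, 7.58 and 7.57 after primary pollutants, 7.52 and 7.46 in the evening control and 7.76 on both PCA arrays. No groups overlapped, with PCA pollutants highest and then primary pollutants, evening control and morning control. Its log2 fold change was 0.27 (SE 0.0663) after PCA pollutants, or 121% of control, below the fold limit. PARP9 and PARP10 formed the least alike pair, with a difference in centred signal of 0.539.

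OAS1 makes 2′-5′-oligoadenylates on sensing double-stranded RNA, and it was part of the reason for the choice. It read 10.07 and 10.00 in the morning control, 10.82 and 10.65 after primary pollutants, 9.89 and 9.97 in the evening control and 11.26 and 11.16 after PCA pollutants. All 4 exposed arrays lay above the 4 controls, and OAS1 rose by 1.28 (SE 0.0854) after PCA pollutants, to 243% of its control. Its order of groups was the reverse of that of PARP9.

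**Figure D1:**
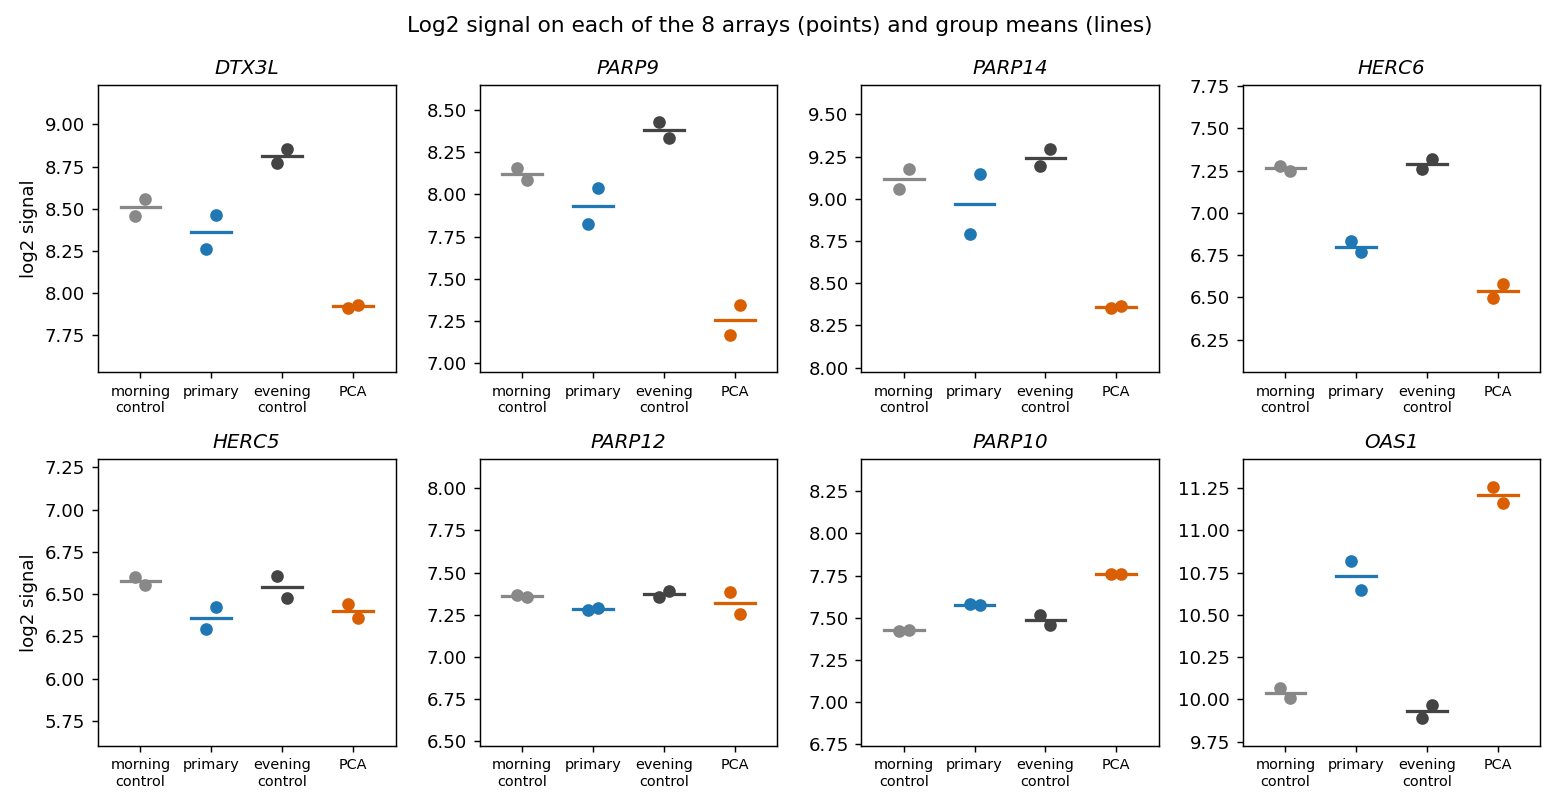
Log2 signal (vertical axes, each spanning the same 1.7 log2 units) of the 7 genes and OAS1 on each array, with points for the 2 arrays of a group and lines for group means. PCA arrays are the lowest for DTX3L, PARP9, PARP14 and HERC6 and the highest for PARP10 and OAS1, and PARP12 stays between 7.26 and 7.39.

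In all, 4 of the 7 genes fell and 0 rose after PCA pollutants, where 2.66% of all 17470 genes tested fell and 0.876% rose. Their median log2 fold change was -0.75, against -0.0017 over all genes tested. Both PCA arrays lay below both evening controls for 5 of the 7 genes and above them for PARP10, against 36.6% and 31.7% of all genes. These counts restate the choice of the genes. Across all genes tested 464 fell and 153 rose, a split that turned to 194 and 443 when arrays were scaled to 52 ribosomal protein genes, which moved the median of all genes to 0.143. The same 4 members fell under that scaling. With a fold limit of 2 only PARP9 was called. Without a fold limit these 4 fell and PARP10 was called higher, as 14.1% of all genes were lower and 5.63% higher.

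The arrays of primary pollutants and morning control did not enter the PCA difference, which was taken to have chosen the genes. The spread in the fit, however, comes from all 8 arrays. For primary pollutants less morning control 0 of the 7 genes were called by limma, as were 0.0% of all 17381 genes tested. The median of the 7 genes was -0.15, against -0.0072 over all genes. At an unadjusted p under 0.05 there were 2 of the 7, HERC6 and HERC5, against 7.9% of all genes. HERC6 had an unadjusted p of 0.000251 and a limma adjusted p of 0.292, which was 0.65 with only the 4 arrays of the comparison. That limma adjusted p was 0.107 with a trended and robust prior and 0.128 at a minimum signal of 100. HERC5 had a limma adjusted p of 0.533. Both primary arrays lay below both morning controls for 4 of the 7 genes, namely PARP9, HERC6, HERC5 and PARP12, and above them for PARP10, where 21.7% and 17.0% of all genes did so.

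The other 5 genes had no call after primary pollutants at either limit. PARP9 was at -0.19 (SE 0.101, limma adjusted p = 0.658) and DTX3L at -0.15 (SE 0.0891, limma adjusted p = 0.701). PARP14 was at -0.15 (SE 0.119, limma adjusted p = 0.786), and it rested on the first primary array, without which it was 0.03. Without that array DTX3L was at -0.05 and PARP9 at -0.08, and without the second primary array they were at -0.25 and -0.30. PARP12 was at -0.08 (SE 0.073, limma adjusted p = 0.824) and PARP10 at 0.15 (SE 0.0663, limma adjusted p = 0.595). OAS1 was at 0.70 (SE 0.0854), past the fold limit but with a limma adjusted p of 0.255. That limma adjusted p was 0.00176 with a trended and robust prior and 0.65 with only the 4 arrays of the comparison. The study, by its own limits, listed OAS1 as higher after both mixtures and reported the same direction by quantitative PCR.

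**Figure D2:**
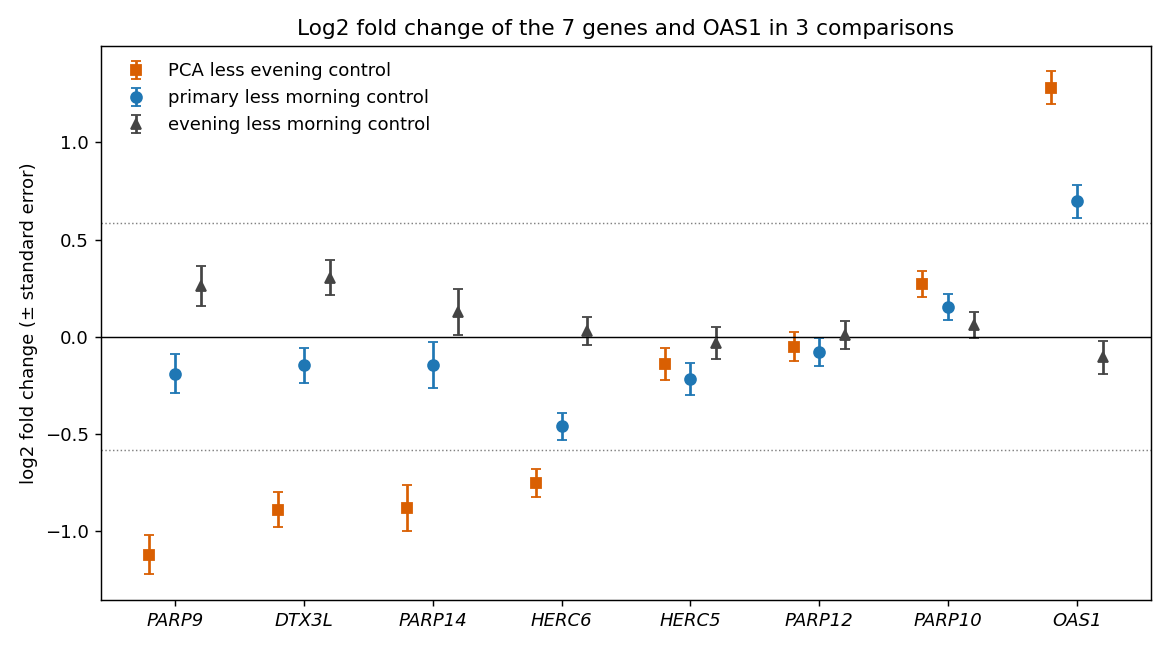
Log2 fold change (vertical axis, bars are standard errors from limma) of the 7 genes and OAS1 for PCA pollutants less evening control (squares), primary pollutants less morning control (circles) and evening less morning control (triangles), with dotted lines at the fold limit of 1.5. Squares of 4 genes lie beyond the lower line, and among circles only OAS1 passes a line, at 0.70.

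The 2 control groups differed for some of these genes, and the evening controls enter both this difference and the PCA comparison. Evening less morning control was 0.30 for DTX3L, 0.26 for PARP9, 0.13 for PARP14, 0.06 for PARP10, 0.03 for HERC6, 0.01 for PARP12 and -0.03 for HERC5. Both evening arrays lay above both morning arrays for DTX3L, PARP9, PARP14 and PARP10, against 22.1% of all 17310 genes tested, and below them for none of the 7, against 19.7%. No gene on the arrays was called between the controls by limma (0.0%), and 4.97% were at an unadjusted p under 0.05, among them 2 of the 7, DTX3L and PARP9. Set against the morning control instead, a comparison added after the data were seen, PCA values were -0.86 for PARP9, -0.76 for PARP14, -0.72 for HERC6 and -0.59 for DTX3L. The same 4 genes fell in that comparison, with DTX3L just beyond the fold limit. Set against the evening control, primary values were -0.49 for HERC6, -0.45 for DTX3L, -0.45 for PARP9 and -0.27 for PARP14, none of them called. The evening controls are part of the comparison taken to have chosen the genes, so these values are a description.

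The PCA response less the primary response was -0.93 for PARP9 (SE 0.143), which was called, as were 0.348% of all 17540 genes in that direction and 0.0912% in the other. DTX3L was at -0.74 (SE 0.126) and PARP14 at -0.74 (SE 0.168), neither called, and HERC6 at -0.29 (SE 0.102). HERC5, PARP12 and PARP10 lay between 0.03 and 0.12. The PCA side of this difference chose the genes, so it is a description. PARP9 was called in 7 of 19 alternatives, and DTX3L and PARP14 in 3 of 19 each. Of the 19, 8 left 1 array in a group. The values ran from -1.04 to -0.83 for PARP9, -0.84 to -0.64 for DTX3L and -0.91 to -0.56 for PARP14. With the replicate number as a block PARP9 was not called, and 0 genes on the arrays fell in this difference.

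Of 17 PARP family genes 16 were tested, since PARP15, which lies between DTX3L and PARP14, was under the signal limit, and 2 fell after PCA pollutants, PARP9 and PARP14. The 12 family members outside the 7 genes had a median of -0.18, and 0 were called by limma while 7 were at an unadjusted p under 0.05, as were 36.9% of all genes. TNKS, a tankyrase that adds chains of ADP-ribose, was lowest among them at -0.45 (SE 0.0707). TIPARP, a target of the aryl hydrocarbon receptor, was highest at 0.35 (SE 0.084). PARP1, the main DNA-damage sensor, was at -0.19 (SE 0.0683), and ZC3HAV1, an antiviral zinc-finger member that lacks catalytic activity, at -0.17 (SE 0.0686). The remaining 8 ran from -0.33 for PARP16 to 0.25 for PARP8. After primary pollutants the 12 had a median of -0.04, and 0 were called or at an unadjusted p under 0.05.

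Of the other HERC genes, HERC3 was at -0.53 (SE 0.0741), HERC1 at -0.47 (SE 0.08), HERC2 at -0.32 (SE 0.0862) and HERC4 at 0.12 (SE 0.0823) after PCA pollutants. Of 6 HERC genes HERC6 alone was called, where 2.66% of all genes fell. HERC3, HERC1 and HERC2 had limma adjusted p of 0.00483, 0.00888 and 0.0371 and missed the fold limit, and these 3 of the 4 were at an unadjusted p under 0.05, as were 36.9% of all genes. DTX3L was likewise the 1 of 5 Deltex genes called, with DTX1 at 0.05, DTX2 at -0.02, DTX3 at 0.09 and DTX4 at -0.16. After primary pollutants 0 of the other HERC and Deltex genes were called or at an unadjusted p under 0.05.

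**Figure D3:**
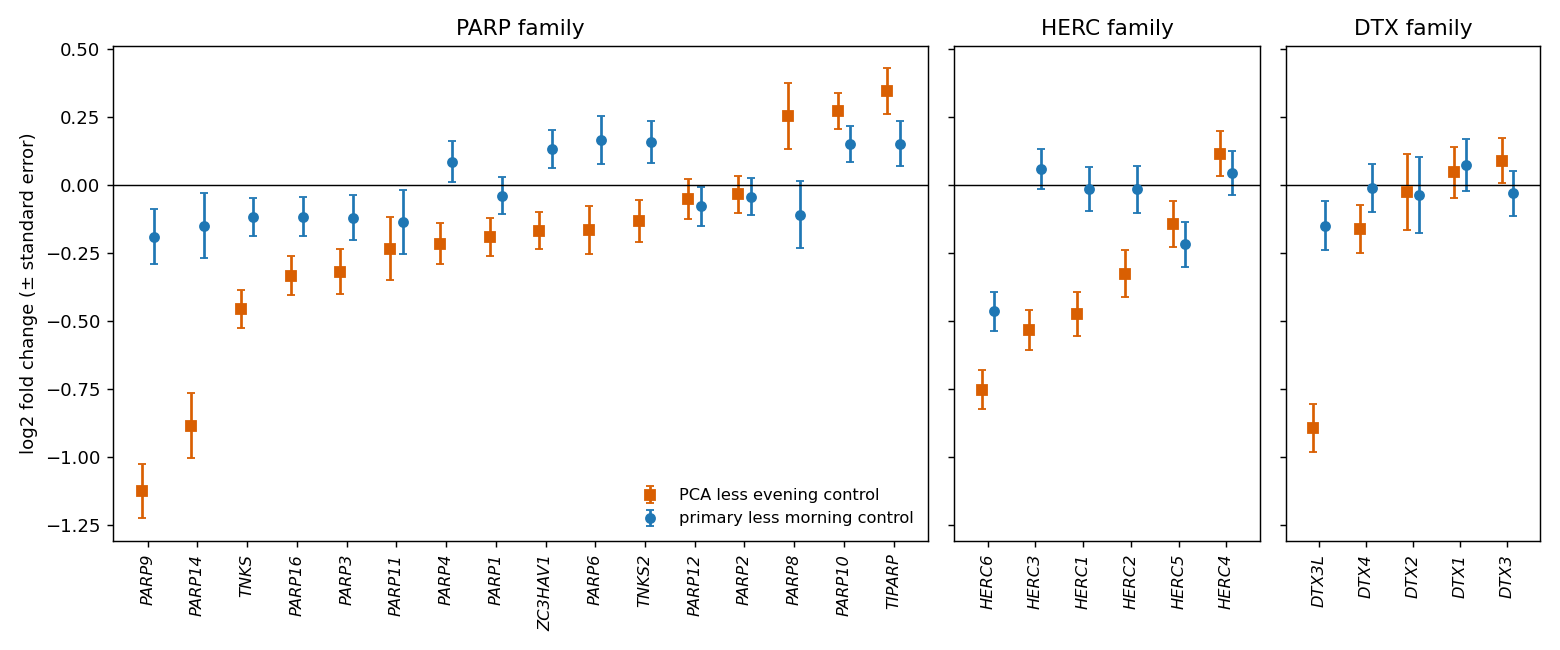
Log2 fold change with standard error (vertical axis) for every tested gene of the PARP, HERC and Deltex (DTX) families after PCA pollutants (squares) and primary pollutants (circles), ordered by the PCA value within a family. PARP9, PARP14, DTX3L and HERC6 have the lowest squares of their families, and the other squares lie between -0.53 and 0.35.

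ISG15 is attached to proteins by an activating enzyme, a conjugating enzyme and ligases such as HERC5, and is removed by USP18. Apart from HERC5 and HERC6, 0 of the 6 genes of this pathway were called after PCA pollutants by limma and 2 were at an unadjusted p under 0.05, a limit that 36.9% of all genes passed. ISG15 itself was at 0.08, the activating enzyme UBA7 at 0.27, the conjugating enzyme UBE2L6 at -0.24, the ligases TRIM25 at -0.13 and ARIH1 at -0.06, and USP18 at -0.15. Their median was -0.10, and after primary pollutants it was 0.03 with 0 called.

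Genes that remove ADP-ribose had a median of 0.0010 after PCA pollutants. Of the 7 tested, OARD1, which cleaves ADP-ribose from modified glutamate, fell by 0.62 (SE 0.0983), and 0 rose. Of 10 genes of NAD synthesis and use, NMNAT2 rose by 0.75 (SE 0.0835), and the median was -0.01. Neither gene was called after primary pollutants, where OARD1 was at -0.29 (limma adjusted p = 0.509) and NMNAT2 at 0.24 (limma adjusted p = 0.509).

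Upstream of these genes, 0 interferon, receptor or signalling genes were called by limma after either mixture. Of 10 interferon genes listed, 9 had a probe set of their own and 5 were tested, with log2 fold changes after PCA pollutants from -0.11 for IFNE to 0.38 for IFNL2, and 2 of them at an unadjusted p under 0.05. Of 18 receptor and signalling genes, 12 were at an unadjusted p under 0.05, where 36.9% of all genes were, and the median was -0.24. IFNAR2, a chain of the type I interferon receptor, was at -0.53 (SE 0.126), and JAK1, a kinase bound to it, at -0.48 (SE 0.0807). IRF9, a DNA-binding part of the interferon-activated complex, was at -0.28 (SE 0.115), and IRF7 was highest at 0.30 (SE 0.081). After primary pollutants the median of the 18 was -0.03. At an unadjusted p under 0.05 there were 2 of them and 1 of the 5 interferon genes, against 7.9% of all genes.

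Among 88 other interferon-stimulated genes tested after PCA pollutants, 10 fell (11.4%) and 1 rose, with a median of -0.19 and 66 below 0. Over all genes tested, 2.66% fell and 50.3% were below 0. Those that fell most were TNFSF10, a death ligand (-1.18, SE 0.0832), IFIT1, which binds viral RNA (-1.08, SE 0.16), BTN3A1, a butyrophilin (-0.79, SE 0.124), IFI35 (-0.73, SE 0.0822) and RNF213, a ubiquitin ligase (-0.71, SE 0.0845). The 1 that rose was OAS1, which was part of the reason for the choice, while its relatives OAS2, OAS3 and OASL were at 0.09, 0.05 and 0.01. The list was chosen with earlier results of these data known, so its counts are a description. The count of falls was 4 with ribosomal scaling or against the morning control. Of all genes, 194 of 17588 fell with ribosomal scaling and 377 of 17480 against the morning control, where 464 of 17470 fell in the main fit. After primary pollutants 0 of 89 were called by limma, as were 0.0% of all genes tested. At an unadjusted p under 0.05 there were 9 of the 89, against 7.9% of all genes. The median of the 89 was then -0.02.

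**Figure D4:**
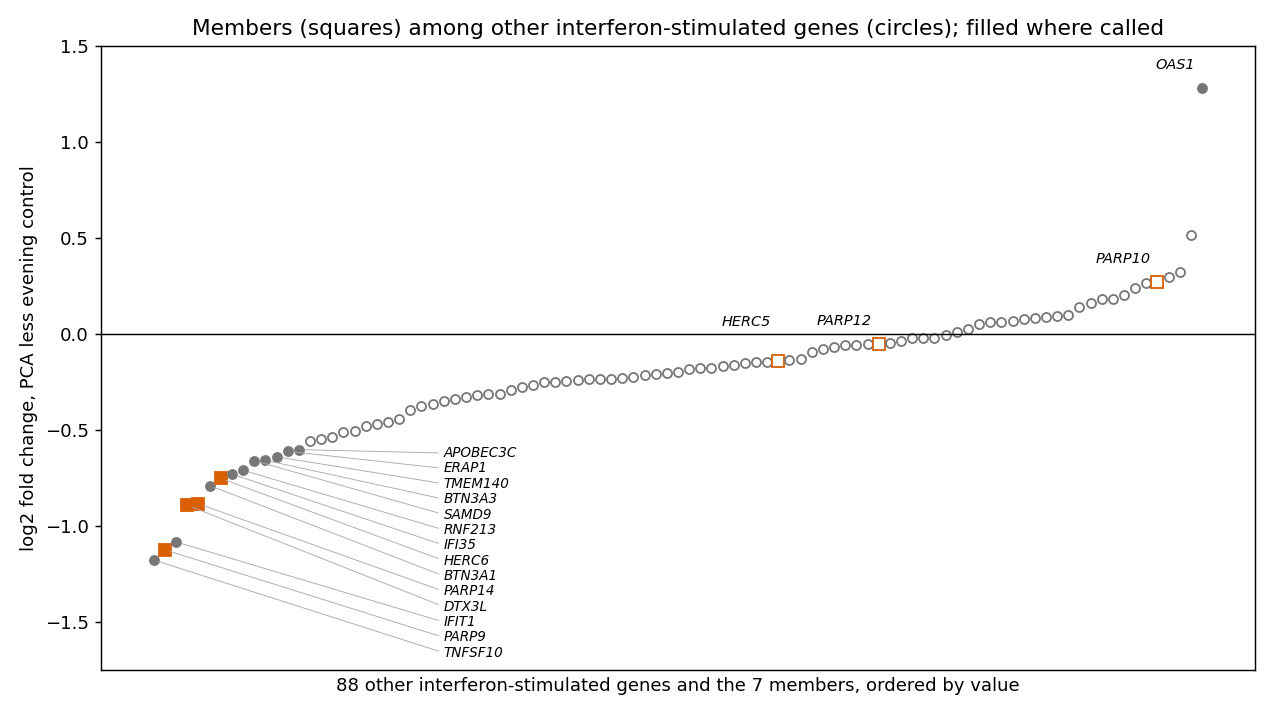
Log2 fold change after PCA pollutants (vertical axis) of the 7 genes (squares) and 88 other interferon-stimulated genes (circles), ordered by value from left to right and filled where called. PARP9, DTX3L, PARP14 and HERC6 lie among the called genes at the left end, HERC5 and PARP12 lie near 0, and OAS1 stands at 1.28.

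The falls were set beside matches to GAAANNGAAA in the promoter windows, as counts. Of the 88 genes 68 had a promoter window in RefSeq. With GAAANNGAAA in the window 6 of 47 fell (12.8%), and without it 2 of 21 fell (9.52%). The median log2 fold changes ran the other way, at -0.17 with this string and -0.22 without it. Over all genes with a window the shares were 4.77% of 545 with this string and 2.69% of 13051 without it. Those genes include members picked because they were lower, and the other interferon-stimulated genes, so these shares are partly set by the choice. Among the 7 genes, DTX3L, PARP9 and PARP14 fell and hold it, HERC6 fell without it, and HERC5 and PARP12 hold it without being called. OAS1, which rose, has no such match in its window, but holds TTCAGAGAA, a match to TTCNNNGAA, 168 bases before its start. The search finds only this exact string, so a window without a match may still hold a response element of another form.

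Position on the chromosome was compared through the 3 nearest tested protein-coding genes on each side. Beside PARP9, DTX3L and PARP14, none of the 6 neighbours was called after PCA pollutants. On one side FAM162A was at -0.03, WDR5B at -0.29 and KPNA1 at 0.02, and on the other HSPBAP1 at -0.27, SLC49A4 at -0.55 and SEMA5B at 0.20. Around HERC6 and HERC5, SPP1 (-0.60) and ABCG2 (-0.65) fell. PPM1K was at -0.37, HERC3 at -0.53, NAP1L5 at 0.20 and FAM13A at -0.46, none of them called. Around PARP10 the 6 neighbours lay between -0.22 for GRINA and 0.23 for PLEC, and around PARP12 between -0.57 for KDM7A and 0.12 for RAB19, with none called.

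**Figure D5:**
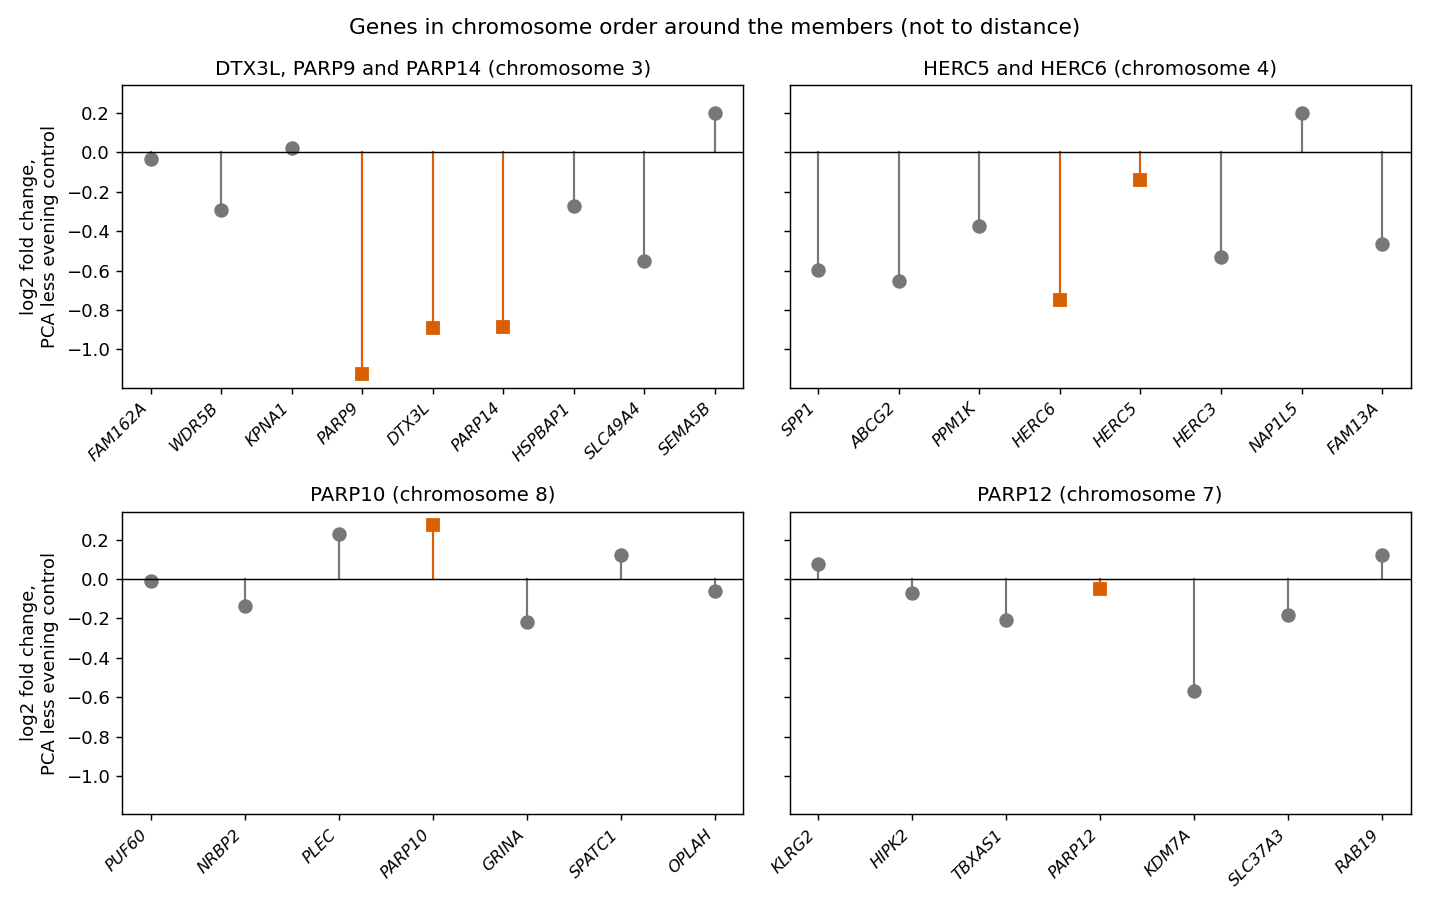
Log2 fold change after PCA pollutants (vertical axis) of the 7 genes (squares) and the 3 nearest tested protein-coding genes on each side (circles), in chromosome order and not to distance. PARP9, DTX3L and PARP14 lie at -1.12, -0.89 and -0.88 between neighbours from -0.55 to 0.20, and HERC6 at -0.75 lies between PPM1K at -0.37 and HERC5 at -0.14.

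The mean of the 7 centred signals was 0.11 and 0.12 in the morning control, -0.10 and 0.02 after primary pollutants, 0.22 and 0.22 in the evening control and -0.30 and -0.28 after PCA pollutants. The 6 other genes nearest to this mean over the 8 arrays were BABAM2, PROS1, USP9X, CYP24A1, HOXB5 and RNF103. They differed from it by 0.0297 to 0.0343 (root mean square, log2 scale), where the median over 17540 genes was 0.219. None of these 6 genes was called after PCA pollutants, with log2 fold changes from -0.54 to -0.48. The 7 genes themselves differed from their mean by 0.14 for DTX3L up to 0.314 for PARP10, since it runs between the genes that fell and those that did not.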

How the data were processed

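RNA of 8 A549 cultures was hybridized to Human Gene 1.0 ST arrays. The deposited signals are on a log2 scale, after robust multichip average normalization by the authors, with Partek 6.4 named in the submitters' processing notes. Nothing further was done to them for the main values. Of 28869 probe sets, 19310 carry 1 gene symbol, 1752 several and 7807 none in the annotation table. A gene was read from its single-symbol probe set of highest mean signal.

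Group means of all 8 arrays were fitted in limma 3.58.1 under R 4.3.3 (lmFit, eBayes, 4 residual degrees of freedom). Probe sets under a signal of 30 on every array of a comparison were left out, and p-values were adjusted by Benjamini-Hochberg over all probe sets tested. The members and gene lists were chosen with earlier results of these data known. Genes named are the members, OAS1, all tested genes of the PARP, HERC, DTX, ISG15 and OAS lists, called genes of the other lists (the 5 largest in each direction where over 5 were called), the 3 nearest neighbours on each side, and the 6 genes nearest to the members' mean. Interferon and signalling genes named beyond this were chosen after their values were seen, as was CDH1. Promoter windows came from RefSeq on GRCh38.p14.

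Replicate numbers did not pair the arrays (correlations of deviations -0.0975, 0.00477 and 0.0545), so no block was used. The fit was tested on simulated data. Of 21 alternatives, 1 (controls exchanged) was chosen after seeing the data. The number of arrays limits the precision, with a median standard error of 0.0955. Plots used matplotlib 3.10.9 under Python 3.11.15.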

Additional observations from a re-analysis of the deposited data

Results flagged for a closer look

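PARP9 is listed because its responses to the 2 mixtures differed by the test of that difference, the PCA response less the primary response, at -0.93 on the log2 scale (SE 0.143). The PCA response was -1.12 and the primary response -0.19. The PCA response was part of the choice of the gene, so the value is a description.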

How the results depend on the processing

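Over 21 alternatives PARP9, DTX3L, PARP14 and HERC6 fell after PCA pollutants in each, except that with a fold limit of 2 only 1 member (PARP9) and 2 other interferon-stimulated genes fell (4 and 10 otherwise reported). With no fold limit PARP10 was also called, so 1 member rose, and 25 of the other genes fell and 3 rose. With ribosomal scaling the member medians were -0.054 (primary), -0.61 (PCA) and 0.15 (evening less morning control), 4 of the other genes fell and 2 rose, and PARP12 turned to 0.0916 (PCA) and 0.0164 (primary) and HERC5 to 0.0011 (PCA). At a minimum signal of 100, where HERC5 was left out, the medians were -0.82 (PCA) and -0.51 (PCA less primary response). With controls exchanged, chosen after seeing the data, they were -0.27 (primary) and -0.59 (PCA), and 4 of the other genes fell. Leaving out 1 array gave primary medians from -0.28 (without the second primary array) to -0.0728 (without the first), 6 (without the second evening control) to 10 falls of the other genes, and 1 to 2 rises (2 without the second PCA array). PARP14 after primary pollutants was 0.0298 without the first primary array and -0.326 without the second, and PARP12 after PCA pollutants 0.0123 without the second PCA array and -0.115 without the first. OAS1 after primary pollutants passed with a trended and robust prior, with an unadjusted analysis of variance and against the evening control. With the replicate number as a block 4 members fell, their PCA median was -0.75, and HERC6 after primary pollutants had a limma adjusted p of 0.517. PARP9 was then no longer called for the PCA response less the primary response (-0.93), where 0 genes on the arrays fell. The other calls of the 7 genes did not change with the block. Causes of these changes were not tested. With 2 arrays a group, small differences are not detectable, and SEs do not cover the spread between exposure periods.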
